A study of Homo sapiens with 4 samples.

Results

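Nucleolar ribosome biogenesis genes were examined in the human cell line ARP1, derived from multiple myeloma, a malignancy of the plasma cells that secrete antibody. The genes were 45 symbols matched by name to the deposited gene table, and each was found once among its 58825 genes. The 4 libraries were ARP1 cells overexpressing RFWD2, 2 libraries, and wild type ARP1 cells, 2 libraries, and all were poly(A)-selected RNA sequenced as paired ends. RFWD2 is the older symbol of COP1, an E3 ubiquitin ligase whose substrates, several transcription factors among them, are degraded. The labels give no vector, promoter or clone for the overexpressing cells. They call the numbered libraries biological repeats without naming separate cultures, so p-values measure only how much these 4 libraries vary, and that variation may be technical. Values of a gene are given for library 1 and then library 2, with the overexpressing cells first and the wild type cells after the word against.

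Ribosomes are built in the nucleolus. RNA polymerase I transcribes a long precursor of the ribosomal RNAs, small nucleolar ribonucleoproteins (snoRNPs) guide its methylation and pseudouridylation, and large sets of assembly factors cut and fold it into the small (40S) and large (60S) ribosomal subunits. Many of these genes are known targets of the transcription factor MYC, which binds the E-box sequence CACGTG. Cells that make antibody chains at a high rate need a large supply of ribosomes.

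COP1 itself was at 13.5 and 13.9 FPKM against 5.99 and 8.93 FPKM. FPKM are fragments scaled to transcript length and library size. COP1 thus stood higher in both overexpression libraries, with a log2 fold change of 0.86 ± 0.36 (SE), short of the threshold in edgeR (quasi-likelihood test, Benjamini-Hochberg adjusted p = 1.0). Plasma cell markers fixed as a list of 10 genes summed to between 1754 and 2273 FPKM per library, and all 5 adipocyte markers stayed under 1 FPKM in each library, 4 of them at 0. The markers of mature B cells, 4 of 5 under 1 FPKM, summed to between 0.457 and 1.17 FPKM, those of T cells to between 0.102 and 0.236 FPKM, those of myeloid cells to between 0.125 and 1.28 FPKM and those of stromal cells to between 0.0943 and 0.741 FPKM. Each library held between 62143098 and 70713792 estimated counts.

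The 45 genes differed widely in level, and all of them passed the filter on low counts. Their mean over the 4 libraries ran from 1.85 FPKM for UTP20, a large scaffold of the small subunit processome, to 349.8 FPKM for FBL (fibrillarin), the methyltransferase of the box C/D snoRNPs, with a median of 21.7 FPKM. Besides FBL, the most abundant members were the histone chaperone and nucleolar scaffold NPM1, its relative NPM3, and NHP2 and NOP10, both small proteins of the box H/ACA snoRNPs. NPM1 was at 173.9 and 285.5 FPKM against 200.9 and 320.1 FPKM. The table also holds 46 NPM1 pseudogenes, of which NPM1P27 averaged 55.03 FPKM and the others at most 2.56 FPKM, so reads of NPM1 and its copies may have been split.

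**Figure D1:**
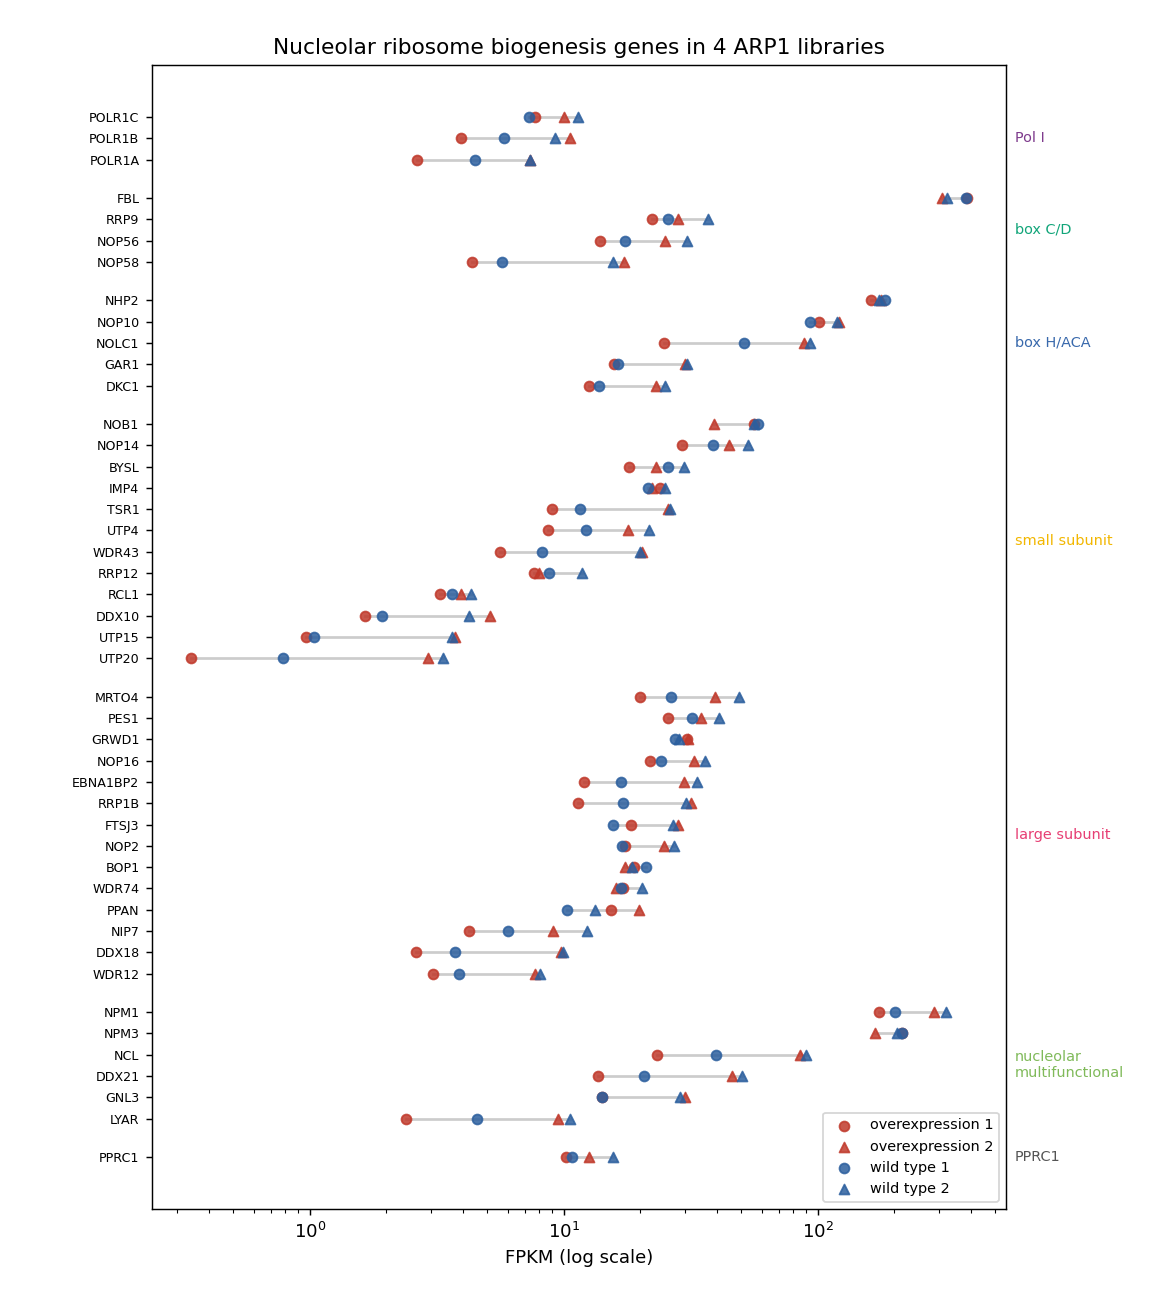
FPKM (log scale) of each of the 45 genes in the 4 libraries, with circles for libraries numbered 1, triangles for those numbered 2, red for RFWD2 overexpression and blue for wild type, and grey lines spanning the 4 values. Levels run from under 1 FPKM for UTP20 to over 300 FPKM for FBL. In 34 of 45 genes both triangles lie to the right of both circles, against 44.4% of all tested genes.

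Promoters of the members were examined because MYC-type E-boxes are a known feature of this class of gene. RefSeq windows from 250 bases before to 50 bases after a gene's start (GRCh38.p14) matched 39 of the 45 members, with none for NOP58, NOLC1, RRP12, BOP1, DDX18 and RRP1B. CACGTG, which reads the same on both strands, occurred in at least 1 window of 18 of these 39 members (46.2%), against 8.77% of 27305 symbols with a window and 13.2% of 7806 of them that averaged at least 1 FPKM here. It occurred in 27 of 94 other ribosome biogenesis genes with a window (28.7%) and in 3 of 26 ribosomal protein genes (11.5%). Of the 21 E-boxes in member windows, 13 lay between 60 bases before and 30 bases after the start (61.9%), against 38.0% of 2821 E-boxes in all windows. The ETS-type motif CCGGAAG, searched on both strands, was in 15 of the 39 members (38.5%, against 12.2% of all symbols and 25.2% of those expressed here). It was in 45 of the 94 other ribosome biogenesis genes (47.9%) and 9 of the 26 ribosomal protein genes (34.6%). A palindromic consensus of NRF1 was in 3 of the 39 members (7.69%), against 1.52% of all symbols and 2.88% of those expressed here. A match is a description of the letters only.

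Stretches of 60 bases before to 30 bases after the start are shown for 6 members whose E-box lies there, chosen to span genes called higher in the libraries numbered 2 (UTP20, WDR43), a gene near the members' median in that comparison (UTP4, 0.63, not called) and genes near 0 or below it (RRP9, NOP10, FBL). Each is given 5′ to 3′ on the gene's strand from RefSeq's GRCh38.p14 table, with the E-box in capitals.
UTP20: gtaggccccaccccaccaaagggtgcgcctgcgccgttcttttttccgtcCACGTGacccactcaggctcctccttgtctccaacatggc
UTP4: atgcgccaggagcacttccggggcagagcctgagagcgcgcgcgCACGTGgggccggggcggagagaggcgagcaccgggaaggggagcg
WDR43: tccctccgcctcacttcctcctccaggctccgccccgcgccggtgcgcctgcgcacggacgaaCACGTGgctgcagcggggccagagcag
RRP9: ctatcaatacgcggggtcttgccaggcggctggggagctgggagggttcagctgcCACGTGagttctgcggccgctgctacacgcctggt
FBL: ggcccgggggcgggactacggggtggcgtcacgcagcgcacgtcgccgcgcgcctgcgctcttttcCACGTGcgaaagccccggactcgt
NOP10: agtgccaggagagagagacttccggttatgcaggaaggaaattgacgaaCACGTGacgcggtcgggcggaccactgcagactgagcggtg
They come from chr12:101280045-101280134 (plus strand, UTP20), chr16:69132589-69132678 (plus, UTP4), chr2:28894607-28894696 (plus, WDR43), chr3:51941875-51941964 (minus, RRP9), chr19:39846350-39846439 (minus, FBL) and chr15:34343107-34343196 (minus, NOP10). The E-box begins 10 bases before the start in UTP20, 16 before it in UTP4, 5 before it in RRP9 and 11 before it in NOP10, and at base 4 of the transcript in WDR43 and base 7 in FBL. Members with a CACGTG had a median log2 fold change between genotypes of -0.33 and those with a window but none of -0.19, and their median differences between library numbers were 0.47 and 0.40. The ranges of the 2 sets overlapped in both comparisons. Between genotypes they ran from -0.48 to 0.030 with the E-box and from -0.52 to 0.53 without it. Between library numbers they ran from -0.58 to 2.19 with the E-box and from -0.55 to 1.57 without it.

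With RFWD2 overexpression, most of these genes had slightly lower values, and none passed the test. The median log2 fold change of the 45 genes was -0.21, with quartiles of -0.35 and -0.10, against 0.015 over all 18873 genes tested. Of the 45 genes, 40 had a value below 0, where 48.4% of all tested genes had one. EdgeR called 0 of the 45 and 0% of all tested genes at an adjusted p under 0.05, 0 of the 45 reached an unadjusted p under 0.05 (1.83% of all tested genes), and DESeq2 and limma also called 0 of the 45. The smallest unadjusted p was 0.17, for PPAN, and every adjusted p was 1.0. This edgeR fit did not include the library number. With that number added, 5 of the 45 reached an unadjusted p under 0.05 (6.36% of all tested genes) and 0 were called.

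Within each replicate number the median difference in log2 CPM (library-scaled counts, here with TMM factors) was -0.21 for number 1 and -0.23 for number 2. Values were lower with overexpression in 36 genes within number 1 (51% of all tested genes), in 40 within number 2 (49.4%) and in 33 within both (27.2%). PPAN and GRWD1 were higher within both, against 26.9% of all tested genes. Genes of 1 library are not independent of each other, so these counts are no replicate check. The levels of the libraries crossed: in FPKM both overexpression libraries lay below both wild type libraries for 3 genes, BYSL, RRP12 and NOB1 (7.73% of all tested genes), and above both for 2, PPAN and GRWD1 (12.8%). With TMM-scaled CPM in place of FPKM the split was 7 below (RRP9, NOP14, RCL1, BYSL, RRP12, PES1 and PPRC1; 10.5% of all tested genes) and 1 above (PPAN; 10.8%). Leaving out overexpression library 2 or wild type library 1 gave a median of -0.46. Leaving out overexpression library 1 gave -0.025, and leaving out wild type library 2 gave 0.00051. These fits set unequal mixtures of library numbers against each other.

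**Figure D2:**
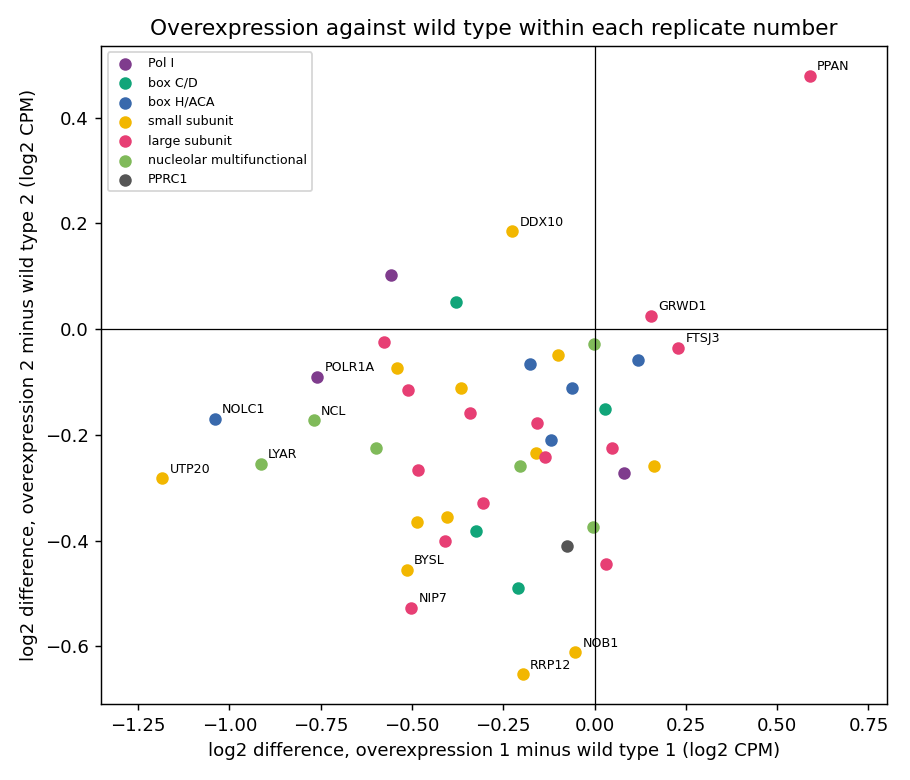
Difference in log2 CPM between overexpression and wild type for each of the 45 genes, within replicate number 1 on the x axis and within number 2 on the y axis, coloured by role. The lower left quadrant, lower within both numbers, holds 33 genes, and the upper right holds PPAN and GRWD1 alone.

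RNA polymerase I was represented by 3 subunits, all below the members' median level of 21.7 FPKM and none called. POLR1A, the largest subunit, was at 2.64 and 7.36 FPKM against 4.49 and 7.34 FPKM. The library numbered 1 of the overexpressing cells was the lowest and the libraries numbered 2 were alike, giving differences of -0.76 and -0.090 within the numbers. POLR1C, a subunit shared with RNA polymerase III, was at 7.67 and 10.0 FPKM against 7.28 and 11.3 FPKM. Its genotypes overlapped, and its log2 fold change was -0.11 ± 0.35 (SE).

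The box C/D snoRNP proteins, which carry out 2′-O-methylation of ribosomal RNA, had log2 fold changes from -0.36 to -0.044. FBL (chromosome 19, 39834458 to 39846379, minus strand, table coordinates) was at 387.6 and 309.0 FPKM against 381.1 and 321.6 FPKM, or 348.3 ± 55.6 against 351.4 ± 42.1 (SD, n = 2 each). The genotypes differed by less than this spread, and both libraries numbered 2 were the lower ones. The core scaffold NOP56 was at 13.9 and 25.1 FPKM against 17.4 and 30.6 FPKM, lower with overexpression within both numbers (-0.32 and -0.38). Its partner NOP58 was at 4.36 and 17.2 FPKM against 5.70 and 15.6 FPKM, so that the genotypes overlapped fully and the numbers did not. RRP9, the protein specific to the U3 snoRNP, was at 22.2 and 28.2 FPKM against 25.7 and 37.1 FPKM (log2 differences of -0.21 and -0.49 within the numbers).

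The box H/ACA proteins, which carry out pseudouridylation and also stabilise telomerase RNA and are 5 here with the chaperone NOLC1, had a median log2 fold change of -0.13. The pseudouridine synthase DKC1 was at 12.6 and 23.1 FPKM against 13.7 and 25.1 FPKM (-0.17 ± 0.40, SE). GAR1 was at 15.7 and 30.1 FPKM against 16.4 and 30.4 FPKM, nearly equal within each number. NOP10 was at 100.7 and 121.4 FPKM against 93.0 and 118.4 FPKM, the only member of this group with a log2 fold change above 0 (0.030 ± 0.33, SE). In these 3 genes the genotypes overlapped and the libraries numbered 2 were higher. NHP2 was at 161.4 and 177.6 FPKM against 183.0 and 174.2 FPKM, again with overlap. NOLC1, a chaperone of both snoRNP classes, was at 24.9 and 88.1 FPKM against 51.3 and 92.8 FPKM, so that its genotype difference of -0.45 ± 0.55 (SE) came with -1.04 within number 1 and -0.17 within number 2.

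Of the 12 factors of the small subunit processome and of later 40S precursors, 10 were lower within both numbers and 11 had a log2 fold change below 0 (median -0.24). BYSL (bystin; chromosome 6, 41921499 to 41933046, plus strand), needed for late 40S maturation, was at 18.0 and 23.0 FPKM against 25.7 and 29.6 FPKM. Both overexpression libraries were below both controls, by -0.51 and -0.45 within the numbers (log2 fold change -0.48 ± 0.33, SE, unadjusted p = 0.20 with edgeR). RRP12, an export factor of 40S precursors, was at 7.63 and 7.97 FPKM against 8.77 and 11.7 FPKM (log2 differences of -0.20 and -0.65 within the numbers). NOB1, the endonuclease that trims the 3′ end of 18S ribosomal RNA, was at 55.95 and 39.1 FPKM against 58.2 and 55.96 FPKM, so its separation rested on 55.95 against 55.96 FPKM. Its log2 fold change of -0.28 became -0.77 without overexpression library 1 and 0.093 without overexpression library 2. DDX10, an RNA helicase of this group, was the 1 factor with a log2 fold change above 0 (0.054 ± 0.58, SE).

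Of the 14 factors of the large subunit, 11 had a log2 fold change below 0 (median -0.21). NIP7 was at 4.24 and 9.10 FPKM against 6.02 and 12.3 FPKM, the most negative value of all members at -0.52 ± 0.47 (SE) and nearly the same within the numbers (-0.50 and -0.53). MRTO4, a placeholder for the ribosomal stalk protein on the 60S precursor, was at 19.9 and 39.4 FPKM against 26.5 and 48.7 FPKM (log2 differences of -0.41 and -0.40 within the numbers). In both genes the genotypes overlapped because the libraries numbered 2 were higher in either genotype. The PeBoW complex, which processes the 5.8S and 28S ribosomal RNAs, had log2 fold changes of -0.32 for PES1, -0.17 for BOP1 and -0.22 for WDR12. GRWD1, a WD-repeat factor of 60S assembly, was at 30.5 and 30.8 FPKM against 27.5 and 28.4 FPKM, or 30.7 ± 0.27 against 27.9 ± 0.66 (SD, n = 2 each). Its log2 fold change was 0.10 ± 0.32 (SE), and another expressed model, KCNJ14, overlaps it on the same strand.

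PPAN, a factor of 60S precursors (chromosome 19, 10106362 to 10112012, plus strand), was the member with the largest positive value. It was at 15.4 and 19.7 FPKM against 10.3 and 13.2 FPKM, with a log2 fold change of 0.53 ± 0.34 (SE) and 0.59 and 0.48 within the numbers. A readthrough model, PPAN-P2RY11, overlaps it, with 0.17 and 0.18 FPKM in the overexpressing cells and 8.98 and 7.56 FPKM in the controls. No overexpression library reached a wild type one there. Summing PPAN and this model gave 15.6 and 19.9 FPKM against 19.2 and 20.8 FPKM, and the fitted log2 fold change of the summed counts turned to -0.18. The direction at PPAN thus differed between the gene alone and the sum. A change in the readthrough RNA and a different assignment of reads between the models cannot be told apart in these values.

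**Figure D3:**
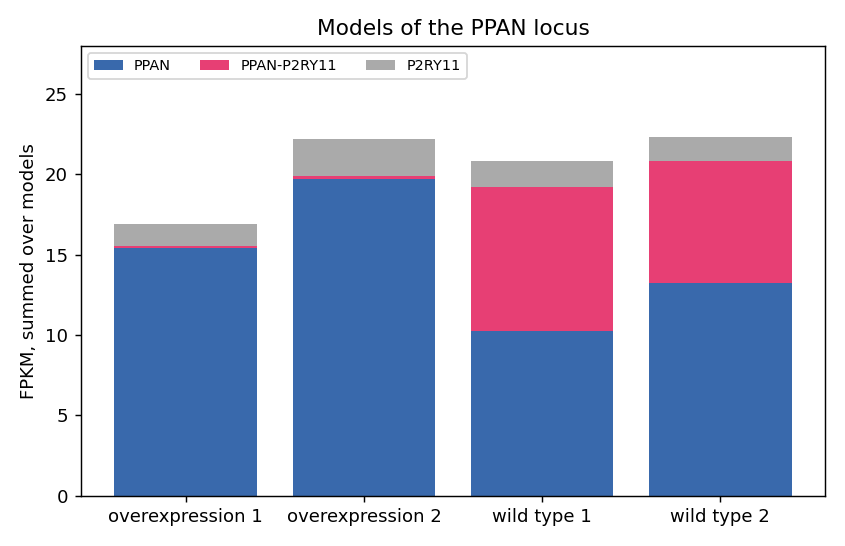
FPKM of the overlapping models PPAN, PPAN-P2RY11 and P2RY11 stacked for each library. The readthrough model makes up 8.98 and 7.56 FPKM in wild type and under 0.2 FPKM with overexpression, while the stacked totals lie between 16.9 and 22.3 FPKM.

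The 6 nucleolar organizers and multifunctional proteins all had values below 0 within both numbers (median log2 fold change -0.29), although GNL3 and NPM3 were at -0.0017 and -0.0035 within number 1. LYAR, a nucleolar zinc finger protein, was at 2.40 and 9.47 FPKM against 4.54 and 10.6 FPKM, with -0.91 within number 1 and -0.25 within number 2. NPM1 had log2 differences of -0.20 and -0.26 within the numbers. Its means were 229.7 ± 78.9 against 260.5 ± 84.2 FPKM (SD, n = 2 each), a spread that includes the difference between library numbers. PPRC1, a transcriptional coactivator related to PGC-1 rather than an assembly factor, was at 10.2 and 12.5 FPKM against 10.8 and 15.6 FPKM. Its log2 fold change was -0.25 ± 0.33 (SE).

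The larger difference in these genes lay between libraries numbered 2 and libraries numbered 1, whose numbers are shared by the genotypes without the labels saying what a number stands for. In 34 of the 45 genes both libraries numbered 2 were above both numbered 1 in FPKM (44.4% of all tested genes), and in 3, FBL, BOP1 and NPM3, both were below (20.5%). With TMM-scaled CPM these counts were 28 above and 7 below, against 32.7% and 30.7% of all tested genes. The median log2 difference was 0.54 (0.51 with overexpression, 0.47 in wild type), against 0.029 over all tested genes. Across the 45 members, deviations of the overexpression and wild type libraries of the same number from their genotype means had r = 0.93, against 0.59 over the 11203 genes averaging 1 FPKM or more.

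EdgeR called 7 of the 45 higher in the libraries numbered 2 (2.04% of all tested genes called higher) and 0 lower (2.84%). The 7 were UTP15, NOP58, DDX18, TSR1, WDR43, DDX10 and UTP20, with adjusted p-values from 0.049 to 0.050. The lowest adjusted p of all 18873 genes was also 0.049, so the calls stood at the threshold itself, and leaving out any 1 library ended all 7. Without 1 library the differences themselves stayed positive, from 1.52 to 1.63 for UTP15, 1.23 to 1.61 for NOP58, 1.11 to 1.63 for DDX18, 0.87 to 1.25 for TSR1, 1.005 to 1.55 for WDR43, 0.98 to 1.21 for DDX10 and 1.71 to 2.91 for UTP20. UTP15, a processome subunit that also serves RNA polymerase I transcription, was at 0.97 and 1.04 FPKM in the libraries numbered 1 (overexpression, then wild type, here and below) and at 3.73 and 3.61 FPKM in those numbered 2, a log2 difference of 1.57 ± 0.22 (SE). NOP58 differed by 1.41 ± 0.21 (SE). The helicase DDX18 was at 2.61 and 3.73 FPKM in the libraries numbered 1 and at 9.76 and 9.90 FPKM in those numbered 2 (1.34 ± 0.23, SE). TSR1, a GTPase-like factor of 40S precursors, was at 8.96 and 11.6 FPKM in the libraries numbered 1 and at 25.8 and 26.1 FPKM in those numbered 2 (1.05 ± 0.19, SE). UTP20 had the largest difference of all members, with 0.34 and 0.78 FPKM in the libraries numbered 1 and 2.93 and 3.34 FPKM in those numbered 2 (2.19 ± 0.42, SE). In these 5 genes both libraries numbered 2 were above both numbered 1, and within number 1 the overexpressing cells were the lower.

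The difference was negative or near 0 in other members. FBL differed by -0.58, NOB1 by -0.55, NPM3 by -0.49 and BOP1 by -0.45. NHP2 and GRWD1 differed by -0.26, IMP4 by -0.23 and WDR74 by -0.19, while NOP10 was at 0.016. GRWD1, whose longest annotated transcript has 5571 nt, was negative in both genotypes. Scaling mattered here: on FPKM, whose use moved the median of all genes to 0.20, NOP10 was higher in both libraries numbered 2 and NHP2 was higher in that of the overexpressing cells. Transcript length moved with the difference in all genes: with expressed genes split into 4 equal bins of longest annotated transcript, in the shortest bin (31 to 1652 nt) the median difference was -0.47 in the overexpressing cells and -0.31 in the controls, and in the longest bin (4519 to 34526 nt) it was 0.47 and 0.31. The 9 members in the shortest bin had medians of 0.0018 and 0.28, the 15 in the second of 0.040 and 0.13, the 10 in the third of 0.62 and 0.60 and the 11 in the longest of 1.13 and 0.80. Pearson's r between log2 length and the difference was 0.55 with overexpression and 0.49 in wild type over the 45 members, and 0.30 and 0.22 over 11188 genes; the points share the same 4 libraries. Between genotypes r over the members was -0.45 within number 1 and 0.12 within number 2, and over the 11188 genes -0.14 and 0.042. Mitochondrially encoded genes also differed by number, with 7.46% and 7.68% of counts in the libraries numbered 1 and 4.96% and 4.27% in those numbered 2. The part of length, RNA quality or a batch in these differences was not tested.

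**Figure D4:**
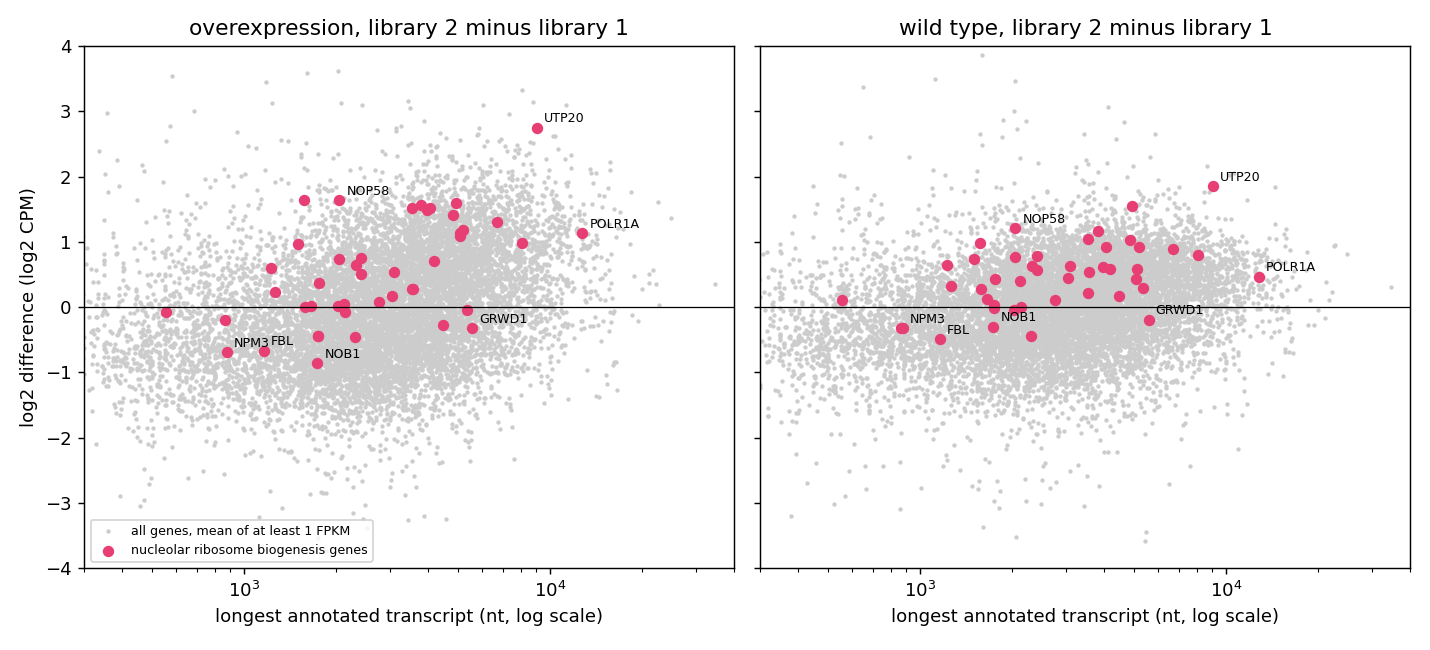
Difference in log2 CPM between library 2 and library 1 of each genotype against the length of the longest annotated transcript (log scale), for the 45 members (pink) and all genes averaging 1 FPKM or more (grey). Members of the longest bin have medians of 1.13 and 0.80, and 262 and 265 genes beyond 4 on the y axis or under 300 nt are outside the panels.

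MYC was at 3.44 and 4.48 FPKM against 3.45 and 90.4 FPKM, so that 1 library alone was high. From library 1 to library 2 the members' median difference was 0.51 with overexpression, where MYC differed by 0.037, and 0.47 in wild type, where MYC differed by 4.46. Within number 2, where MYC differed by -4.42 on the log2 scale between the genotypes, 40 of the 45 members were lower, and within number 1, where MYC differed by -0.0016, 36 were lower. A part of MYC in these values was not tested.

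Other genes of the pathway, a list of 110 that were all tested, gave a similar picture. Their median log2 fold change with overexpression was -0.14, and 87 had a value below 0 (48.4% of all tested genes). Within both numbers 62 were lower (27.2%) and 8 higher (26.9%). EdgeR called 0 in either direction (0% of all tested genes), and 0 reached an unadjusted p under 0.05 (1.83%). The smallest unadjusted p-values belonged to FCF1, DDX49, NOL6 and BUD23. FCF1, a nuclease-fold protein of the processome, was at 1.86 and 5.01 FPKM against 3.87 and 8.09 FPKM (-0.87 ± 0.55, SE). The helicase DDX49 was at 21.2 and 26.0 FPKM against 28.5 and 34.7 FPKM. BUD23, which methylates 18S ribosomal RNA, was at 12.8 and 11.8 FPKM against 17.3 and 14.3 FPKM. DDX49 and BUD23 were among 10 of the 110 with both overexpression libraries below both wild type libraries in FPKM (7.73% of all tested genes). In 2 of the 110 both overexpression libraries lay above (12.8%). NOL6, another processome protein, was at 5.60 and 8.42 FPKM against 6.30 and 13.2 FPKM. The most positive values among genes of at least 5 FPKM belonged to NMD3 and UTP3. NMD3, the export adaptor of the 60S subunit, had 4.10 and 8.35 FPKM against 2.75 and 6.88 FPKM (0.32 ± 0.52, SE). UTP3, a processome factor, had 42.3 and 94.3 FPKM against 33.6 and 72.4 FPKM (0.30 ± 0.46, SE), and both genes overlapped between the genotypes. Between library numbers the list had a median of 0.57, with 17 genes called higher (2.04% of all tested genes) and 1 lower (2.84%), where every call again had an adjusted p of at least 0.049.

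A chosen list of 35 cytosolic ribosomal protein genes, whose products are assembled by these factors, went the other way between library numbers. Their median was -0.67, and 8 were called lower (2.84% of all tested genes) and 0 higher (2.04%). All 35 were lower in the library numbered 2 within both genotypes, against 6861 of all 18873 tested genes. Between genotypes their median was -0.039 and 0 were called. Their longest annotated transcripts were shorter, with a median of 1326 nt against 2402 nt in the nucleolar list.

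Members also lie close to other RNAs of the same machinery. In GENCODE release 29, 28 snoRNA or scaRNA genes lie on the same strand within 9 of the 45 member genes. NOP56 holds SNORD110, SNORD56, SNORD57, SNORD86 and SNORA51, NCL holds SNORD20, SNORD82 and SNORA75, and WDR43 holds SNORD53, SNORD53B and SNORD92. Expressed models overlap 5 members on the same strand (UTP4, PPAN, GRWD1, WDR74 and GNL3). Without these 5 the median log2 fold change between genotypes was -0.22.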

How the data were processed

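Per the labels' protocols, poly(A) RNA was made into paired-end Illumina libraries. Per the file headers, the deposited table gives counts and FPKM for each gene and library. The counts are whole numbers and were treated as estimated counts, because 35.4% to 36.0% of the deposited values from 1 to 19 are multiples of 4. Deposited FPKM of 0.0001, a placeholder, were set to 0. Bowtie 0.12.2, StringTie 1.3.0, HISAT2 2.0 and the build mm8 appear in the submitters' processing notes, with no roles. The table holds human genes, and 20 of the 45 members have exactly the coordinates of GENCODE release 29 (GRCh38). The sources do not state the counting tool, the use of strand or the annotation.

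The main test was edgeR's quasi-likelihood test (edgeR 4.0.16 under R 4.3.3), run on those counts with TMM factors, filterByExpr and Benjamini-Hochberg adjustment over 18873 genes, two-sided, called under 0.05. SE is the log2 fold change divided by the root of its F value. Within-number differences use log2 CPM (prior count 2). Alternatives were DESeq2 (1.42.0), limma (3.58.1) on log2(FPKM + 1) or log2(FPKM + 0.1), other filters and scalings, and leaving out libraries. The tests were run on simulated counts that held a genotype effect but no difference between library numbers. That run therefore cannot say how the genotype test performs where the library numbers differ, as they do here. With 2 libraries a group an exact permutation test cannot go below p = 0.333 and was not used. Depth was 62143098 to 70713792 total counts, and precision is limited by the 2 libraries a group.

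Members and lists were chosen with earlier results of these data known. Full values are given for members whose genotypes did not overlap, for the 2 smallest p and the highest level in each role group, for all snoRNP proteins, for PPAN and for the 4 smallest p between library numbers. Of the other pathway genes, the 4 smallest p and the 2 largest changes each way at 5 FPKM or more are named. UTP20, the PeBoW genes, NPM3, DDX10, the other members named for their difference between library numbers and the ETS and NRF1 motifs were added after values were seen.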

Additional observations from a re-analysis of the deposited data

How the results depend on the processing

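The count of 0 called members between genotypes held under every alternative run, and all medians of the 45 genes between genotypes stayed below 0 except without wild type library 2. The median was -0.18 with limma on log2(FPKM + 1), with or without the filter, -0.19 on log2(FPKM + 0.1), -0.24 with the replicate block and -0.22 without members that overlap another expressed model, and ran from -0.46 to 0.00051 without 1 library. Called genes of the whole table, 0 in the main test, were 8 with no count filter, 55 with DESeq2 and 73 to 183 without 1 library. With TMM-scaled CPM 8 members separated by genotype (1 above and 7 below, beside 10.8% and 10.5% of all tested genes), and 5 did in FPKM (2 and 3, beside 12.8% and 7.73%). The cause of these shifts was not tested.

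Libraries of the same number deviated together (r = 0.59), but the labels do not say what a number shares and there are only 2 pairs, so the samples were not treated as paired. The replicate block left 0 members called, with 5 of 45 at an unadjusted p under 0.05 beside 6.36% of all tested genes (1201), and 0 of all genes called.

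Between library numbers, 7 members and 921 genes were called. The members called were 0 with no count filter, 21 with DESeq2, 27 with limma on log2(FPKM + 1), 19 on log2(FPKM + 0.1), 0 with limma unfiltered, 15 with counts divided by 4 and 0 to 0 without 1 library. All genes called were 0, 4774, 3414, 2891, 0 and 2724 in the same order and 0 to 128 without 1 library. Of the 921 genes 385 were higher and 536 lower, while DESeq2 gave 2468 and 2306 and limma on log2(FPKM + 1) 2683 and 731; FPKM moves the median of all genes from 0.029 to 0.20. The members' median was 0.79 with limma on log2(FPKM + 1), filtered or not, 0.83 on log2(FPKM + 0.1), and 0.38 to 0.68 without 1 library.

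Single genes changed sign between genotypes in a few other settings. DDX10 was at -0.019 with the replicate block, PPAN at -0.18 when summed with PPAN-P2RY11, and GNL3 at 0.029 with limma on log2(FPKM + 1), filtered or not, and 0.030 on log2(FPKM + 0.1). Without 1 library the log2 fold changes that changed sign ranged as follows: POLR1A from -1.01 to 0.12, POLR1B from -0.78 to 0.30, POLR1C from -0.30 to 0.10, NOP58 from -1.10 to 0.66, FBL from -0.42 to 0.26, DKC1 from -0.46 to 0.17, NOP10 from -0.027 to 0.083, NHP2 from -0.28 to 0.035, GAR1 from -0.42 to 0.27, NOLC1 from -1.37 to 0.10, UTP15 from -1.07 to 0.91, UTP20 from -2.39 to 0.76, WDR43 from -1.15 to 0.40, IMP4 from -0.27 to 0.18, DDX10 from -0.73 to 0.56, TSR1 from -0.90 to 0.34, NOB1 from -0.77 to 0.093, BOP1 from -0.42 to 0.063, WDR12 from -0.79 to 0.23, NOP2 from -0.31 to 0.13, EBNA1BP2 from -0.90 to 0.074, FTSJ3 from -0.17 to 0.37, DDX18 from -1.21 to 0.47, WDR74 from -0.43 to 0.018, GRWD1 from -0.080 to 0.25, RRP1B from -0.89 to 0.23, NCL from -1.30 to 0.21, NPM3 from -0.55 to 0.15, GNL3 from -0.43 to 0.42, DDX21 from -1.20 to 0.27, LYAR from -1.48 to 0.15, MYC from -4.45 to 0.016, P2RY11 from -0.11 to 0.31, UTP3 from -0.16 to 0.80, NMD3 from -0.12 to 0.96. With 2 libraries a group, the number of libraries limits these values; the lowest count of a member in a library was 257.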
